A study of Homo sapiens with 12 samples.

Results

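KLK2, KLK3, TMPRSS2, FOXA1, HOXB13, STEAP1 and STEAP2 are genes of prostate luminal cells and of androgen receptor signaling, and their chromatin accessibility was analysed in DU-145 and BT-549 cells. Each gene was given a window of its GENCODE v44 body plus 20 kb on each side, and the 7 windows were read among those of 20046 protein-coding genes. The windows held 286 of the 709366 bins of 100 bp in the DU-145 table, in 21 of 79177 accessible regions. In the BT-549 table they held 171 of 472994 bins, in 11 of 46298 regions. HOXB13 had no bin in either table and KLK2 had none in that of BT-549. The receptor gene itself is not among the members.

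The established human cell lines used were DU-145, from a castration-resistant prostate cancer (CRPC), and BT-549, from a breast cancer of the triple-negative type (TNBC). Both carried tet-MUC1shRNA, a MUC1 short hairpin RNA in the inducible pLKO-tet-puro vector. The 4 groups were DU-145 vehicle, DU-145 DOX, BT-549 vehicle and BT-549 DOX, in which vehicle was 0.1% DMSO and DOX was doxycycline, both for 7 days. ATAC-seq libraries, in which the Tn5 transposase tags open DNA, were made from 50000 cells each, with 3 biologically independent replicates per group and 12 libraries in all. No DOX-treated cells with a control hairpin were analysed here, so that MUC1 silencing and DOX itself cannot be told apart.

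In luminal cells of the prostate, the androgen receptor binds enhancers that the forkhead factor FOXA1 and the homeobox factor HOXB13 help to open. Its classical targets are the secreted kallikrein proteases KLK2 and KLK3, the latter being prostate-specific antigen, and the membrane serine protease TMPRSS2. STEAP1 and STEAP2 are neighboring genes for membrane proteins of the metalloreductase family that are abundant in prostate epithelium. DU-145 is known as an androgen-independent line, and BT-549 is a mesenchymal breast line.

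A bin value is the depth of fragments averaged over the 100 bases of the bin. The level of a region or window is the sum of its bins per 1000000 of the library's sum over all bins, hereafter normalized coverage. These sums spanned 12370094 to 25232000 over the 6 DU-145 libraries. Among BT-549 libraries, the vehicle sums spanned 9142900 to 13606129 and the DOX sums only 2502510 to 3267024, and the part of this lower depth in the BT-549 results was not tested. With this scaling the median log2 fold change over all regions was 0.24 in DU-145 and -0.10 in BT-549, against 0.048 and 0.0016 with TMM factors. The changes are to be read against these medians.

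In DU-145 cells, 4 of the 21 member regions opened and 6 closed in response to DOX (edgeR quasi-likelihood test, adjusted p under 0.05 over all regions). The background was high, with 37.1% of all DU-145 regions opened and 17.4% closed. The largest opening lay in a STEAP1 intron, at 20.2-fold, and the largest closing in a TMPRSS2 intron, at 0.232-fold. Both of these, and the 5 MX1 regions of BT-549, had peaks only in the libraries of the group where they are high, and entered the table through that group. Of the 4 opened regions 3 lay over 1 kb from any transcription start, where 44.5% of all DU-145 regions opened and 12.8% closed. The 6 closed regions were split evenly, and within 1 kb of a start 18.9% of all regions opened and 28.6% closed. In BT-549 cells, 1 of the 11 member regions opened and 6 closed, against 12.2% opened and 18.0% closed over all regions. Of those 6 closings, 5 lay in MX1, the interferon-induced neighbor of TMPRSS2, and 1 lay in FOXA1.

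**Figure D1:**
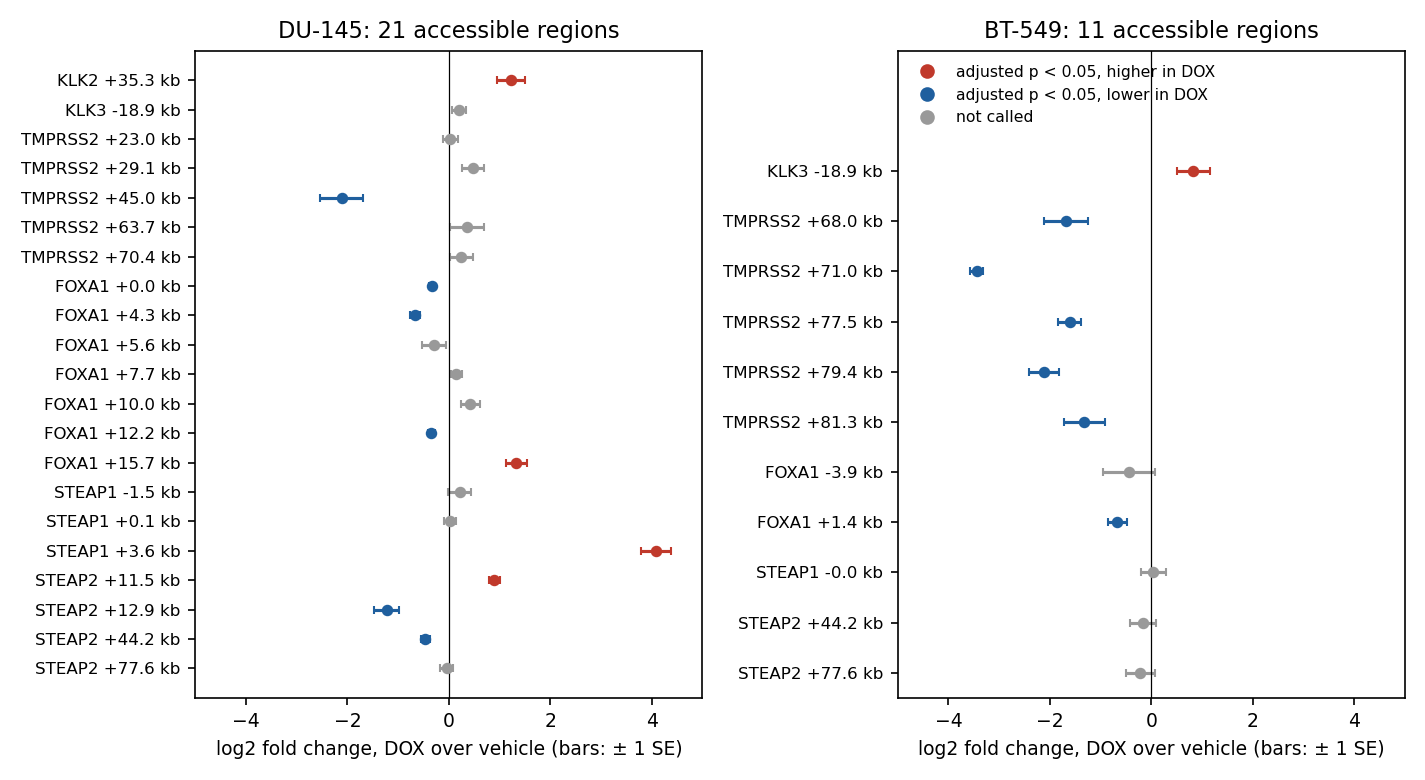
Log2 fold change (DOX over vehicle) of each accessible region in the member windows, with bars of 1 SE, for DU-145 (21 regions) and BT-549 (11 regions), each with 3 libraries per group. Regions are named by the nearest member and the distance of their highest bin from its outermost transcription start, and the STEAP1 intron of DU-145 at 4.08 and the MX1 intron of BT-549 at -3.44 stand farthest from 0.

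The STEAP1 and STEAP2 windows overlap on chromosome 7, so that 5 of the 7 DU-145 regions there belong to both. A region of 900 bp within a STEAP1 intron, chr7:90157401-90158300 on GRCh38, has its highest bin 3594 bp downstream of the transcription start. Its normalized coverage was 0.198, 0.695 and 0.310 in the vehicle libraries and 8.82, 7.42 and 7.99 in the DOX libraries. The groups did not overlap, and every DOX library was above all vehicle libraries. The log2 fold change was 4.08 ± 0.29 (SE, n = 3 per group, adjusted p = 9.55e-14), and it was 4.88 without vehicle replicate 2, the highest of the vehicle libraries. The region met the rule of 3 replicates with a peak only through the DOX libraries, the group where it is high, so that its p-value is conditional on that choice and the values above stand as a description. The authors' peak calls hold a peak there in 0 of 3 vehicle and 3 of 3 DOX libraries, at fold enrichments of 14.9, 14.4 and 16.1. The region is not in the BT-549 table.

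The opened STEAP1 intron is followed by 2 STEAP2 intron regions that moved in opposite directions. At chr7:90178501-90179400, the coverage was 16.5, 16.8 and 16.2 in vehicle and 32.2, 27.6 and 32.4 in DOX libraries. This region opened by a log2 fold change of 0.90 ± 0.11 (adjusted p = 2.86e-08). At chr7:90180101-90181000, it was 7.17, 8.0 and 8.13 in vehicle and 2.61, 1.97 and 5.35 in DOX libraries. This neighbor closed by -1.23 ± 0.24 (adjusted p = 4.45e-05), and in neither region did the groups overlap. Peaks overlapped the opened region in all 6 libraries, whereas the closed region had a peak in 3 of 3 vehicle and 2 of 3 DOX libraries.

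The sequences of both STEAP2 intron regions are shown because these neighbors changed in opposite directions. Each line gives the 300 bp around the highest bin, on the plus strand of GRCh38, at chr7:90178901-90179200 and chr7:90180301-90180600. Capitals, here and in the sequences of other members, mark a forkhead heptamer (TGTTTAC or GTAAACA), an AP-1 heptamer (TGACTCA or TGAGTCA) or a GATA core (AGATAA or TTATCT). Neither of these STEAP2 stretches holds any of the motifs searched.
STEAP2 intron, opened: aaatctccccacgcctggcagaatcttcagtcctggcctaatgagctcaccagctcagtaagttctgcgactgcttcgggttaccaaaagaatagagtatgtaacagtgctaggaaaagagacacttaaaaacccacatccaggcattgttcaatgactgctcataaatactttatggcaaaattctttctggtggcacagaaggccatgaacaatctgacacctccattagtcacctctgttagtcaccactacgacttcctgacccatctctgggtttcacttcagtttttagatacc
STEAP2 intron, closed: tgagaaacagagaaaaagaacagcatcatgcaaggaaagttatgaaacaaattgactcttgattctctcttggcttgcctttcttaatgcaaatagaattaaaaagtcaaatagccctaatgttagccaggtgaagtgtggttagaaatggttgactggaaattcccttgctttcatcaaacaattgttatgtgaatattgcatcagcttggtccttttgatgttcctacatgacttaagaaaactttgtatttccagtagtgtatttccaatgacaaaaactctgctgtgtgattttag

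Such matches were common or rare depending on the motif. Among the 300-bp stretches around the highest bin of all DU-145 regions, an AP-1 heptamer was found in 30.0%, a forkhead heptamer in 6.20% and a GATA core in 13.6%. The homeobox letters CCAATAAA, a core of HOXB13 sites, were found in 0.954%, and in none of the stretches of the 21 member regions. The androgen response element, spelled as AGAACA and TGTTCT with 3 free bases between them, was found in 1 of the 79177 DU-145 and 0 of the 46298 BT-549 stretches. All motifs were searched on both strands with no mismatch. A match describes letters and is not a bound site.

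The STEAP promoters were accessible in both lines. The STEAP1 promoter, chr7:90153701-90155100 in DU-145, had coverages of 32.5, 22.4 and 28.6 with vehicle and 29.5, 26.4 and 28.1 in DOX libraries. The groups overlapped, and the log2 fold change was 0.02 ± 0.12 (adjusted p = 0.899). The promoter of the RefSeq STEAP2 transcript, chr7:90211001-90212500, stood at 54.6, 46.8 and 49.0 with vehicle and 36.2, 35.2 and 37.8 in DOX libraries. It closed by -0.46 ± 0.09 (adjusted p = 5.50e-05), with no overlap between the groups. In BT-549 cells, the STEAP1 promoter was at 11.0, 11.7 and 15.0 in vehicle and 13.1, 11.6 and 13.8 in DOX libraries, and the STEAP2 promoter was at 13.9, 13.3 and 13.3 in vehicle and 14.6, 14.7 and 7.28 in DOX libraries. Neither BT-549 promoter passed the test, at 0.04 ± 0.24 and -0.16 ± 0.26 (adjusted p = 0.918 and 0.674).

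**Figure D2:**
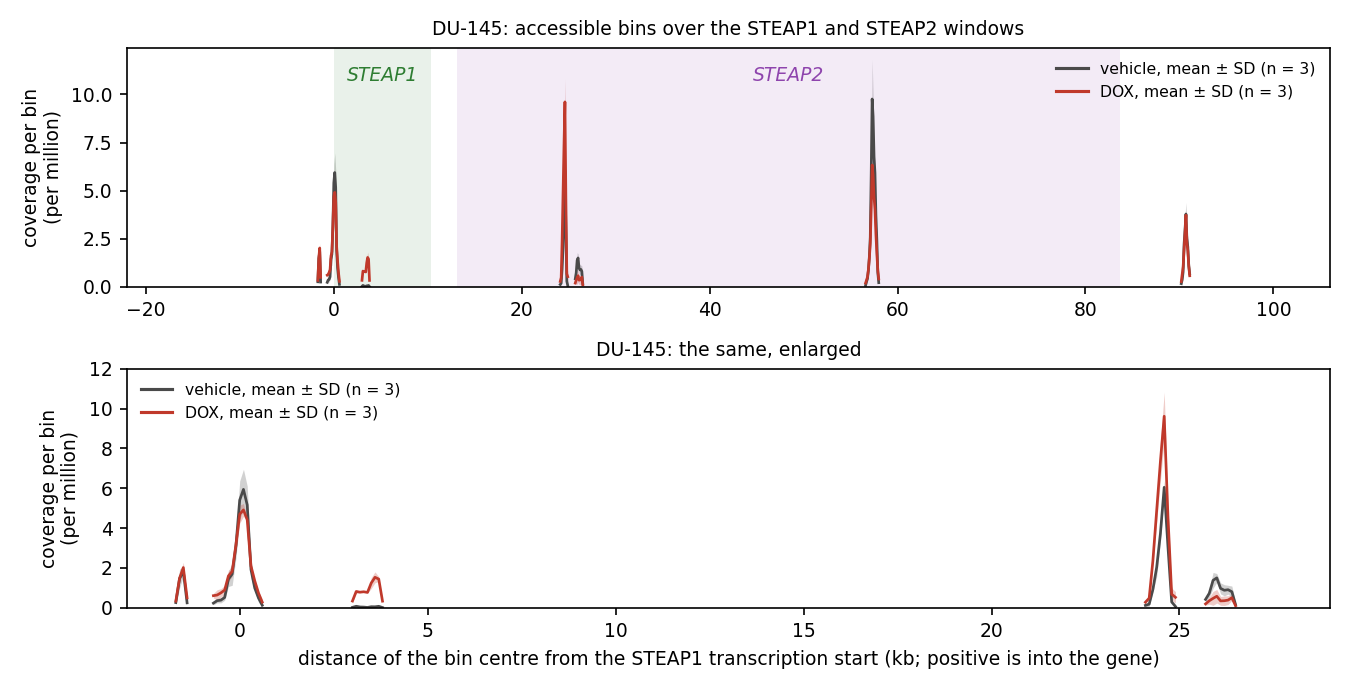
Normalized coverage per 100-bp bin (per 1000000 of the library sum) in DU-145 vehicle and DOX libraries against the distance from the STEAP1 transcription start, as the mean with a band of 1 SD (n = 3), and the same enlarged around STEAP1. The band of DOX lies far above that of vehicle in the STEAP1 intron, where the region sums were 0.401 and 8.08, and the bands cross at the STEAP1 promoter, where vehicle is higher in the central bins and DOX on the flanks. Bins outside the table are left blank.

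The last STEAP region, chr7:90244601-90245600, lies at the CFAP69 start and showed a log2 fold change of -0.04 ± 0.13 in DU-145 cells. The remaining STEAP1 region lies at -1506 bp, upstream of the start, with 0.21 ± 0.22. Summed over its 45 bins, the STEAP1 window rose from 56.3 ± 4.80 to 74.5 ± 5.99 (SD, n = 3), a log2 fold change of 0.41 ± 0.08 (adjusted p = 1.1e-04). This sum also holds the opened STEAP2 intron region, at 16.5 in vehicle and 30.8 in DOX libraries, and the closed one, at 7.77 and 3.31. It holds the STEAP1 intron region too, at 0.401 and 8.08, which entered the table only through the DOX libraries. The p-value of the STEAP1 window is thus in part conditional on that choice. The STEAP2 window with its 70 bins was at 123.0 ± 8.93 and 127.1 ± 8.52 (0.05 ± 0.07, adjusted p = 0.572). The opened and closed regions of STEAP2 thus stood in 1 sum that did not pass the test. With 50 kb on each side, the STEAP1 window no longer passed either (0.05, adjusted p = 0.537).

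FOXA1, the pioneer factor that opens chromatin for nuclear receptors, was the most accessible member in DU-145 cells by coverage per bin. Its 7 regions span 160 bins, and the widest, chr14:37593801-37600200, covers the promoter and the start of TTC6. There the coverage was 269.8, 263.8 and 252.9 in vehicle and 211.9, 207.3 and 206.4 in DOX libraries. All DOX libraries were lower, by a log2 fold change of -0.33 ± 0.06 (adjusted p = 2.42e-05), but the direction was 0.12 (adjusted p = 0.102) with loess offsets, which remove a dependence of the fold change on coverage. Within the region, the highest bin at the start was at 25.8, 25.0 and 25.4 in vehicle and 20.9, 16.5 and 17.4 in DOX libraries. The bin centered at -2.2915 kb, in an upstream rise of the same region, was at 4.48 ± 0.54 in vehicle and 4.32 ± 0.52 in DOX libraries (SD, n = 3).

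Downstream of the promoter, the FOXA1 regions moved in both directions. The region over the coding exon, chr14:37591101-37593300, was at 38.6, 35.6 and 36.9 in vehicle and 19.8, 24.1 and 25.6 in DOX libraries. It closed by -0.67 ± 0.11 (adjusted p = 2.07e-06), and the groups did not overlap. An intergenic region 12208 bp from the start, chr14:37582501-37585700, was at 83.6, 83.1 and 79.4 in vehicle and 62.9, 62.8 and 68.3 in DOX libraries. It closed by -0.34 ± 0.08 (adjusted p = 3.1e-04), a call lost with loess offsets (-0.12, adjusted p = 0.193).

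An intergenic region 15708 bp from the FOXA1 start, chr14:37580101-37580700, changed the other way. It was at 2.59, 2.65 and 3.44 in vehicle and 6.97, 7.91 and 6.56 in DOX libraries, all DOX libraries being higher. It opened by 1.33 ± 0.21 (adjusted p = 1.41e-06). The other 3 FOXA1 regions had log2 fold changes of -0.30 to 0.42 and did not pass the test. The opened region holds an AP-1 heptamer and a GATA core, in capitals in its 300 bp at chr14:37580201-37580500 on the plus strand, shown as the only FOXA1 region that opened.
FOXA1 distal region, opened: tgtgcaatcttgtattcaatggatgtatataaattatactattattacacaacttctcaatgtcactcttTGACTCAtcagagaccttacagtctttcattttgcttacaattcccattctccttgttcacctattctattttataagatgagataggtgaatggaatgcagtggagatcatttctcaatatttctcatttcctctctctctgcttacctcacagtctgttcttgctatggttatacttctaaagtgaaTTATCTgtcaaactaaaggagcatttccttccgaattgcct

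**Figure D3:**
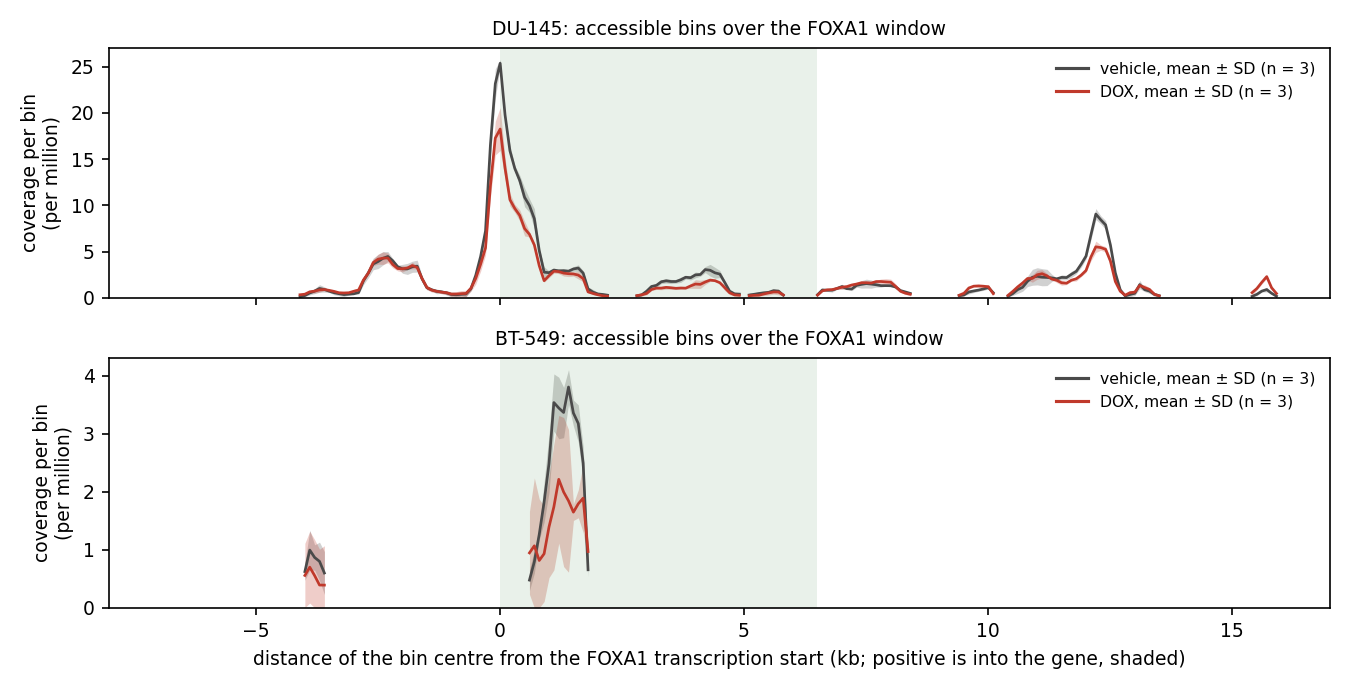
Normalized coverage per 100-bp bin (per 1000000 of the library sum) over the FOXA1 window in DU-145 and BT-549 cells against the distance from the outermost transcription start, as the mean with a band of 1 SD (n = 3). The gene body is shaded. In DU-145 the peaks at the start, over the gene and at 12208 bp are lower with DOX and that at 15708 bp is higher, whereas BT-549 has 2 narrow regions, of which the larger fell from 30.7 to 19.3.

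In BT-549 cells only 18 bins were accessible at FOXA1, in 2 regions. That at chr14:37594201-37595500 was at 29.9, 31.5 and 30.6 in vehicle and 15.7, 22.3 and 19.7 in DOX libraries. It closed by -0.67 ± 0.18 (adjusted p = 6.5e-03), with no overlap. The other, chr14:37599601-37600100, was at 3.40, 2.88 and 5.39 in vehicle and 2.56, 0 and 5.24 in DOX libraries, and its groups overlapped (-0.44 ± 0.51, adjusted p = 0.553). The value was -1.46 without DOX replicate 3 and turned to 0.091 without DOX replicate 2. A peak overlapped it in 3 of 3 vehicle and 0 of 3 DOX libraries. The summed FOXA1 window was 415.1 ± 13.9 and 338.2 ± 4.93 in DU-145 vehicle and DOX libraries, a decrease of -0.30 ± 0.05 (adjusted p = 1.93e-05). In BT-549 it was 34.6 ± 1.35 and 21.9 ± 3.35, a decrease of -0.65 ± 0.18 (adjusted p = 4.3e-03).

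HOXB13, the homeobox factor of the prostate and colon epithelium, had no accessible region in either table. The nearest region to its start was 49850 bp away in DU-145 and 88051 bp away in BT-549. The peak lists per library, which do not need 3 replicates, hold a few weak peaks in its window. In DU-145 vehicle cells, 2 of 3 libraries had a peak at the 3′ end of the gene, with summits 4077 and 4073 bp from the start and fold enrichments of 7.73 and 6.27. No DU-145 DOX library had a peak in the window. In BT-549, 1 DOX library had a peak at -5881 bp from the start, with a fold enrichment of 4.48, and no vehicle library had any.

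The kallikreins KLK2 and KLK3 had no accessible region within 1 kb of any annotated start in either line. Their windows hold 2 DU-145 regions, both nearer to other genes. The region chr19:50896601-50897000, 203 bp from the start of KLKP1, a kallikrein pseudogene locus, and 35282 bp downstream of the KLK2 start, was at 1.07, 1.53 and 1.32 in vehicle and 3.56, 3.02 and 2.90 in DOX libraries. All DOX libraries were higher, and the region opened by 1.23 ± 0.28 (adjusted p = 2.91e-04). A peak overlapped it in 1 of 3 vehicle and 3 of 3 DOX libraries. The region met the rule of 3 replicates only with the DOX libraries, where it is high, so that its p-value is conditional. Its 300 bp at chr19:50896701-50897000, on the plus strand of GRCh38, hold 1 AP-1 heptamer, in capitals, and are shown as the only kallikrein-side region that opened in DU-145.
KLKP1-side region, opened: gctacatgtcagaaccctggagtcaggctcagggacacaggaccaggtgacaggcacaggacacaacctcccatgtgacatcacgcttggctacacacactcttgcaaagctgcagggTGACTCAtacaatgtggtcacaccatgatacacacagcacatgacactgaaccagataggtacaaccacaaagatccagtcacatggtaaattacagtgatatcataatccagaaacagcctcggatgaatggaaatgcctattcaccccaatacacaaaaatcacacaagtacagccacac

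The region upstream of KLK3 lies in an intron of KLK15, another kallikrein, at -18864 bp from the KLK3 start. In DU-145 it was at 12.3, 13.9 and 13.9 in vehicle and 12.1, 17.7 and 16.1 in DOX libraries, with overlapping groups (0.20 ± 0.14, adjusted p = 0.24). In BT-549 the corresponding region, chr19:50835801-50836400, was at 7.24, 4.24 and 5.07 in vehicle and 7.66, 7.18 and 13.9 in DOX libraries. It passed the test narrowly (0.83 ± 0.32, adjusted p = 0.0499) although the groups overlapped. The call was lost without DOX replicate 3 (0.43, adjusted p = 0.407), without vehicle replicate 2 (0.66, adjusted p = 0.212), without vehicle replicate 3 (0.77, adjusted p = 0.153), with the highest bin (0.75, adjusted p = 0.203) and with the replicate block (0.80, adjusted p = 0.0894).

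TMPRSS2 lies tail to tail with MX1, an interferon-induced antiviral GTPase gene, and its window takes in the 3′ part of MX1. In DU-145 cells the window held 42 bins, of which 12 lie inside MX1. The region at the main cluster of TMPRSS2 starts, chr21:41506701-41508600, was at 12.1, 11.4 and 12.6 in vehicle and 12.9, 12.1 and 11.9 in DOX libraries. The groups overlapped, and the log2 fold change was 0.03 ± 0.14 (adjusted p = 0.866). An intron region 29066 bp from the outermost start was at 5.26, 3.32 and 6.56 in vehicle and 8.28, 6.45 and 5.77 in DOX libraries (0.47 ± 0.21, adjusted p = 0.0616).

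A further TMPRSS2 intron region, chr21:41485901-41486300, closed. It was at 1.15, 1.77 and 1.61 in vehicle and 0.311, 0.334 and 0.406 in DOX libraries, and all DOX libraries were lower. The log2 fold change was -2.11 ± 0.42 (adjusted p = 6.79e-05), and -3.34 with loess offsets. The region met the rule of 3 replicates with a peak only through the vehicle libraries, where it is high, so that this p-value too is conditional on the choice of the region. A peak overlapped it in 3 of 3 vehicle libraries, at fold enrichments of 4.41, 6.92 and 5.13, and in 0 of 3 DOX libraries. Its 300 bp at chr21:41486001-41486300, on the plus strand of GRCh38, hold 1 forkhead heptamer, in capitals, and are shown as the largest closing among the DU-145 member regions.
TMPRSS2 intron, closed: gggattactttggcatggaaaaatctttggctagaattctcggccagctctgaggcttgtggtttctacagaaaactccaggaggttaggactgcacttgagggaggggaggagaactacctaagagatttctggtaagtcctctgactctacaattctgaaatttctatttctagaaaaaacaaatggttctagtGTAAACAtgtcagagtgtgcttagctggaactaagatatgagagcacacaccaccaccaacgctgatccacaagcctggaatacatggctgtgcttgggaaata

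In BT-549 cells all 124 bins of the TMPRSS2 window lie inside MX1, and none marks TMPRSS2 alone. The largest region, chr21:41457601-41462800, was at 192.4, 213.4 and 197.1 in vehicle and 22.1, 15.7 and 17.9 in DOX libraries. It closed by -3.44 ± 0.13 (adjusted p = 9.25e-17), to 0.092 of the vehicle level. The other 4 MX1 regions closed by log2 fold changes of -1.32 to -2.11, and in all 5 every DOX library was below every vehicle library. The call at -1.32, chr21:41449501-41450300, was lost with DESeq2 (-1.22, adjusted p = 0.0501), without vehicle replicate 3 (-1.26, adjusted p = 0.0529) and with the highest bin in place of the sum (-1.14, adjusted p = 0.304). The region chr21:41463001-41463800 at -1.68 moved to -2.53 without DOX replicate 3, and its call was lost with the highest bin (-1.46, adjusted p = 0.145), which left 4 of the 6 regions called lower in BT-549. The region chr21:41451401-41452900 moved from -2.11 to -2.87 with the highest bin. A peak overlapped each of the 5 regions in 3 of 3 vehicle and 0 of 3 DOX libraries, so that all 5 entered the table only through the vehicle group, where they are high, and their p-values are conditional on that choice. In DU-145 the 2 MX1 regions of the window were at 3.67 ± 0.35 and 1.20 ± 0.51 in vehicle and 4.42 ± 1.52 and 1.61 ± 0.06 in DOX libraries, and neither passed the test (0.25 ± 0.23 and 0.35 ± 0.33, adjusted p = 0.386 and 0.389). The 300 bp around the highest bin of the largest BT-549 region, chr21:41460001-41460300 on the plus strand, are shown because this MX1 intron carries the largest closing among the member regions of both lines, and they hold none of the motifs searched.
MX1 intron, closed in BT-549: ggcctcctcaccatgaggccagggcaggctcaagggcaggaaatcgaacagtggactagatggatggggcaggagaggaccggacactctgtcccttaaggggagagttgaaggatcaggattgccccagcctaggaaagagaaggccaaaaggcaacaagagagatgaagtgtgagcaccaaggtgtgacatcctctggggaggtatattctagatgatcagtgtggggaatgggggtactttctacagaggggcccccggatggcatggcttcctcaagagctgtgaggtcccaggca

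**Figure D4:**
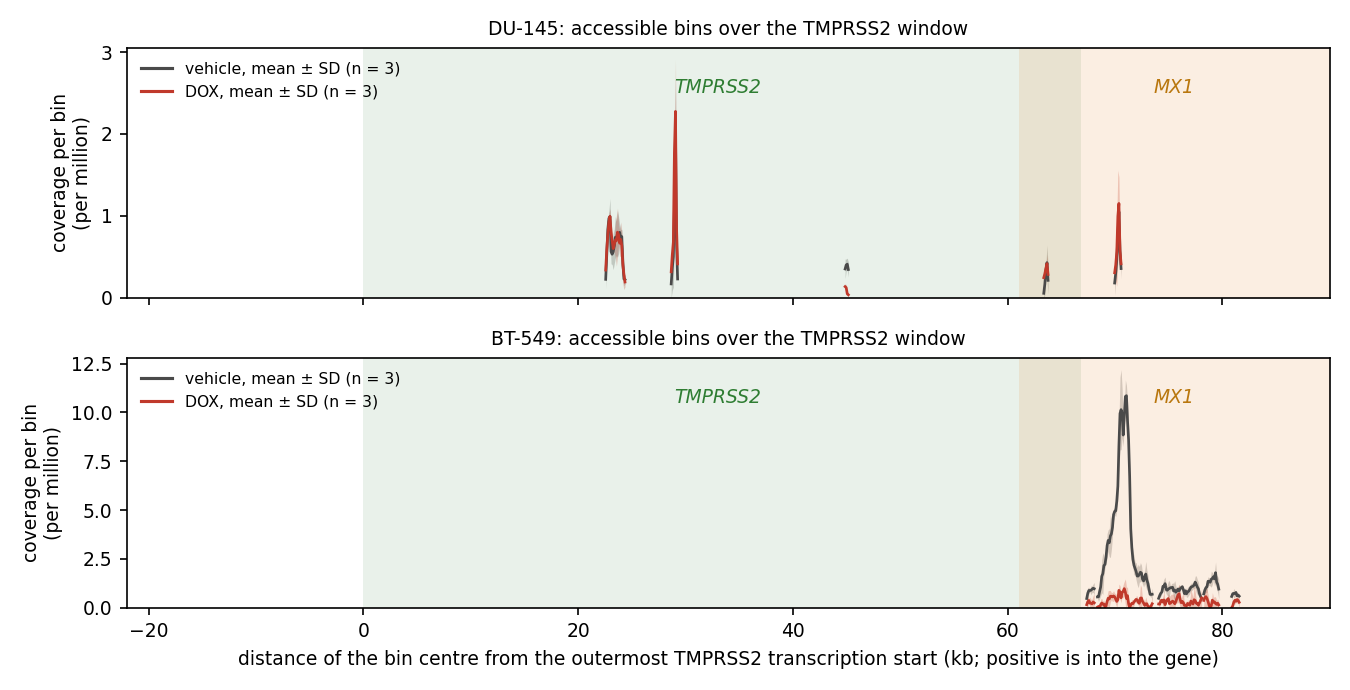
Normalized coverage per 100-bp bin (per 1000000 of the library sum) over the TMPRSS2 window in DU-145 and BT-549 cells against the distance from the outermost TMPRSS2 start, as the mean with a band of 1 SD (n = 3), with the TMPRSS2 and MX1 bodies shaded. In BT-549 all 124 bins lie in MX1, and the mean of 123 of them is lower with DOX. In DU-145 the TMPRSS2 intron region at 44966 bp is lower with DOX, at 0.35 against 1.51.

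Summed over windows, 2 of the 6 members with bins in DU-145 rose with DOX and 1 fell, against 20.6% higher and 31.3% lower over all 18211 windows. KLK2, of which the window holds a single region, rose by 1.22 ± 0.27 (adjusted p = 2.96e-04), STEAP1 rose and FOXA1 fell. The KLK2 region, and the STEAP1 intron region within the STEAP1 sum, met the rule of 3 replicates only with the DOX libraries. The p-values of these rises are thus conditional on that choice, wholly for KLK2 and in part for STEAP1. With 50 kb on each side the KLK2 call was lost (0.16, adjusted p = 0.213), as was that of STEAP1. KLK3 and TMPRSS2 were at 0.20 ± 0.14 and 0.12 ± 0.11 (adjusted p = 0.229 and 0.378). In BT-549, 1 of 5 members rose and 2 fell, against 18.9% higher and 13.8% lower over all 16980 windows. The KLK3 window rose by 0.83 ± 0.31 (adjusted p = 0.0359), a call lost without DOX replicate 3 (0.43), vehicle replicate 2 (0.66) or vehicle replicate 3 (0.77) and with DESeq2 (0.79, adjusted p = 0.0939).

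The TMPRSS2 window of BT-549, which is MX1 sequence, fell from 262.1, 288.9 and 259.9 to 48.4, 30.6 and 40.1 (-2.76 ± 0.12, adjusted p = 6.16e-20). With 5 kb on each side this was -3.46, and the difference between the lines in the effect of DOX was 3.58. All 124 bins of the TMPRSS2 window belong to the 5 MX1 regions that entered the table only through the vehicle group. The p-value of the window is thus conditional on that choice, as for the regions. STEAP1 and STEAP2 stayed without a call in BT-549, at 0.04 ± 0.24 and -0.11 ± 0.16 (adjusted p = 0.911 and 0.644).

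**Figure D5:**
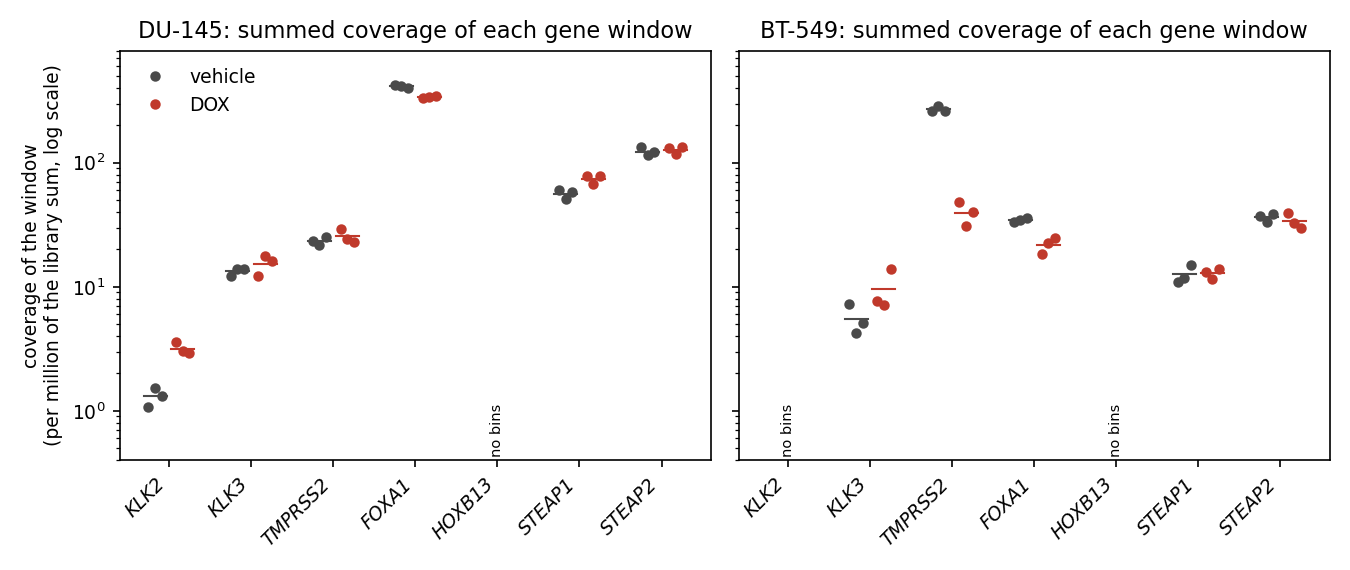
Summed normalized coverage (per 1000000 of the library sum, log axis) of each member window in every library, with a line at the mean of the 3 libraries. FOXA1 lies highest in DU-145, at 400.0 to 427.2 in vehicle libraries, and the TMPRSS2 window highest in BT-549 vehicle, at 259.9 to 288.9. Windows without bins are marked.

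The same comparison was made by single bins, at the cutoffs given in the study's methods. A differentially accessible region (DAR) is there a bin that changed 2-fold or more, with an adjusted p below 1e-05 for DU-145 and below 0.01 for BT-549. Of the 286 DU-145 bins, 10 were opening DARs and 0 were closing DARs (edgeR), against 5.0% opening and 1.59% closing over all bins. The STEAP1 intron held 7 of the 10, at log2 fold changes of 3.25 to 4.89, the opened STEAP2 intron held 2 and the FOXA1 distal region held 1. Those STEAP1 intron bins entered the table only through the DOX group, where they are high, so that their calls are conditional on that choice. A fold of 2 with an unadjusted p under 0.05 was met by 30 bins upward and 10 downward. DESeq2 called 0 in either direction at the DAR cutoffs, with its smallest adjusted p of 2.15e-05 in the STEAP1 intron. No share over all bins is given for the looser cutoff or for DESeq2, so that these counts stand without a comparison.

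In BT-549, 46 of the 171 bins were closing DARs and 0 were opening, against 2.87% closing and 2.07% opening over all bins. All 46 lie in MX1, in regions that entered the table only through the vehicle group, where they are high. The count of closing bins is thus conditional on that choice. A fold of 2 with an unadjusted p under 0.05 was met by 95 bins downward and 2 upward. DESeq2 called 21 closing and 0 opening, and gave no adjusted p for 109 of the bins. Here too no share over all bins is given for the looser cutoff or for DESeq2.

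The vehicle libraries of the lines were also compared, over windows and over the stretches accessible in both tables. Of 5 members with bins in both, 4 had higher window sums in DU-145 and 1 had a lower one, against 44.8% higher and 38.8% lower among 16680 windows. FOXA1 was higher by 3.59 ± 0.07, STEAP1 by 2.17 ± 0.13, STEAP2 by 1.75 ± 0.09 and KLK3 by 1.26 ± 0.18 (log2, adjusted p = 1.22e-24, 1.04e-14, 3.53e-16 and 4.79e-07). These sums run over separately called regions, with 160 bins in DU-145 and 18 in BT-549 for FOXA1, 45 and 8 for STEAP1, 70 and 23 for STEAP2 and 10 and 6 for KLK3, so that they hold the extent of the called regions as well as their level. The vehicle coverage per bin was 2.59 in DU-145 and 1.92 in BT-549 for FOXA1, 1.25 and 1.57 for STEAP1, 1.76 and 1.59 for STEAP2 and 1.34 and 0.919 for KLK3. These means per bin run over different bins in each line, and the same bases are compared only in the stretches present in both tables. With 5 kb on each side the window differences were 1.35 for STEAP1 and 2.46 for STEAP2, and with 50 kb that of TMPRSS2 was -2.76. The TMPRSS2 window, with 42 and 124 bins, was lower by -3.54 ± 0.08 (adjusted p = 1.8e-23), and all its BT-549 bins lie in MX1. A difference in copy number between the lines cannot be told apart from one in accessibility.

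Over 7 stretches with the same bins in both tables, 5 were higher in DU-145 and 1 was lower, against 23.0% higher and 53.5% lower over 32671 stretches. The median of all stretches was -0.47 with library sums and -0.050 with TMM factors. The STEAP2 promoter stretch was at 50.9, 42.5 and 44.4 in DU-145 and 13.9, 13.3 and 13.3 in BT-549 vehicle libraries (1.76 ± 0.12, adjusted p = 2.84e-15). The STEAP1 promoter stretch was at 29.3, 20.1 and 26.2 against 11.0, 11.7 and 15.0 (1.0 ± 0.16, adjusted p = 4.69e-07). The FOXA1 stretch, chr14:37594201-37595500, was at 51.7, 50.6 and 50.7 against 29.9, 31.5 and 30.6 (0.73 ± 0.10, adjusted p = 6.44e-08). In these 3 stretches all DU-145 libraries were higher.

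The KLK15 intron stretch was at 10.8 ± 0.74 in DU-145 and 5.51 ± 1.55 in BT-549 (0.96 ± 0.20, adjusted p = 4.35e-05), and the CFAP69 stretch was at 14.3 ± 2.56 and 10.5 ± 2.02 (0.44 ± 0.17, adjusted p = 0.02). The CFAP69 call was lost without BT-549 vehicle replicate 2 (0.31, adjusted p = 0.126), DU-145 vehicle replicate 1 (0.33, adjusted p = 0.108) or DU-145 vehicle replicate 2 (0.42, adjusted p = 0.0622). The MX1 stretch, chr21:41460501-41461200, was at 3.37, 3.59 and 4.05 in DU-145 against 46.5, 56.3 and 47.1 in BT-549 (-3.77 ± 0.15, adjusted p = 1.83e-22). The FOXA1 stretch chr14:37599601-37600100 did not pass the test (-0.18 ± 0.27, adjusted p = 0.553).

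The effect of DOX was compared between the lines by an interaction term over all 12 libraries. It was higher in DU-145 for 2 of 5 windows and lower for 0, against 16.0% and 29.4% of all windows, and at an unadjusted p under 0.05 the counts were also 2 and 0. DESeq2 called 2 and 0, with 3 and 0 at an unadjusted p under 0.05. For TMPRSS2 the difference was 2.88 ± 0.16 (adjusted p = 8.31e-16), with MX1 bins alone on the BT-549 side. Those bins entered the table only through the vehicle group, where they are high, so that this p-value is conditional on that choice. For FOXA1 the difference was 0.35 ± 0.14 (adjusted p = 0.0375). The 2 sums rest on different bins, 160 in 7 regions of DU-145 and 18 in 2 regions of BT-549, so that the difference is not one of the same sequence. That call was lost in 6 of the 12 fits that left out 1 library, namely BT-549 DOX replicate 1 (0.23) or 2 (0.35), BT-549 vehicle replicate 3 (0.32), DU-145 DOX replicate 3 (0.34) and DU-145 vehicle replicate 2 (0.35) or 3 (0.32). STEAP1 (0.35 ± 0.21), STEAP2 (0.16 ± 0.15) and KLK3 (-0.63 ± 0.33) did not pass (adjusted p = 0.177, 0.415 and 0.113). The KLK3 difference passed without BT-549 vehicle replicate 1 (-0.92, adjusted p = 0.0342).

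Counting peaks gives a coarser view of the same loci. The member windows together held 23, 20 and 20 peaks in DU-145 vehicle, and 22 in each DU-145 DOX library. In BT-549 they numbered 18, 22 and 12 in vehicle libraries, and with DOX 7, 6 and 5. Of these BT-549 peaks, the TMPRSS2 window, which takes in part of MX1, held 6, 12 and 5 with vehicle and 0, 0 and 1 with DOX. The BT-549 numbers below include that window, and a comparison without it was not tested. The groups overlapped in DU-145 (exact two-sided permutation test, p = 0.4) and not in BT-549 (p = 0.1, the smallest that 3 against 3 libraries can give). The BT-549 DOX libraries held 30450 to 39837 peaks in all, against 65204 to 93929 in BT-549 vehicle. Per 100000 peaks of the library, the members had 20.9 ± 3.68 in BT-549 cells given vehicle and 16.5 ± 1.54 in those given DOX (exact permutation p = 0.1). In DU-145 the scaled numbers were 29.6 ± 4.97 and 24.2 ± 1.07 (exact permutation p = 0.3), lower with DOX where the unscaled mean was higher.

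Transcription starts show which members the lines keep open. A region lay within 1 kb of a start for 4 of 7 members in DU-145 (FOXA1, TMPRSS2, STEAP1 and STEAP2) and for 3 of 7 in BT-549 (FOXA1, STEAP1 and STEAP2), against 73.8% and 70.2% of all protein-coding genes. Of 8 epithelial markers, 8 had such a region in DU-145 and 3 in BT-549, where KRT8, KRT18, KRT19, CDH1 and EPCAM had none. Of 10 basal and mesenchymal markers, 6 had one in DU-145 and 7 in BT-549, KRT5, KRT14 and TP63 having none in either line. Of the luminal genes, KLK2, KLK3 and HOXB13 thus had no accessible start in DU-145, while the luminal keratins KRT8 and KRT18 had one there.

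Among 24 other androgen-responsive genes, 9 windows rose and 8 fell with DOX in DU-145, where 20.6% of all windows were higher and 31.3% lower, with a median log2 fold change of -0.06 against -0.06 over all windows. STEAP4, the family member linked to inflammation and metabolism, rose by 1.52 ± 0.10 (adjusted p = 1.85e-14), from 22.5 ± 2.24 to 64.9 ± 6.92. PMEPA1, a TGFβ signaling inhibitor, rose by 0.65 ± 0.06 and C1orf116 by 0.63 ± 0.06, whereas ELL2, an elongation factor, fell by 0.46 on the log2 scale (adjusted p = 6.69e-11, 1.58e-10 and 5.56e-08). In BT-549, 1 of 21 rose and 6 fell, where 18.9% of all windows were higher and 13.8% lower, with a median of -0.02 against 0.04. UAP1, an enzyme of UDP-sugar synthesis, fell from 804.5 ± 23.8 to 441.9 ± 12.4 (-0.86 ± 0.07, adjusted p = 4.44e-12), and ZBTB16 and ABCC4 fell by 0.55 and 0.39 on the log2 scale. PTGER4, a prostaglandin receptor, was the gene that rose (0.47 ± 0.08, adjusted p = 3.33e-05).

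Of 13 lineage factors and coregulators, 3 rose and 4 fell in DU-145, and 3 rose and 2 fell in BT-549. The counts of this and the following lists stand beside the same shares of all windows, 20.6% higher and 31.3% lower in DU-145 and 18.9% and 13.8% in BT-549. In DU-145, SPDEF, an ETS factor of luminal epithelium, fell by 0.64 on the log2 scale and GATA3, a luminal GATA factor, rose by 0.61 ± 0.10 (adjusted p = 4.2e-07 and 7.45e-06). In BT-549, the acetyltransferases CREBBP and EP300 rose by 0.62 ± 0.13 and 0.43 ± 0.11 (adjusted p = 3.93e-04 and 2.8e-03). The basal factor TP63 rose by 0.99 ± 0.08 in DU-145 (adjusted p = 1.42e-11), among 4 of 9 basal and mesenchymal windows that rose and 0 that fell. ZEB1 rose by 1.01 ± 0.13 in BT-549 (adjusted p = 3.26e-07), among 3 of 8 that rose and 1, FN1, that fell (-0.82 ± 0.15, adjusted p = 7.46e-05). Epithelial windows rose in 3 and fell in 1 of 8 in DU-145, and rose in 1 and fell in 0 of 7 in BT-549. Between the lines in vehicle, the sums of all 7 epithelial windows compared were higher in DU-145, as were those of 44.8% of all windows, and these sums too run over regions called separately in each line.

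The genes with the window pattern most like each member were sought by Pearson's r of log2 of the coverage plus 1 over the 12 libraries, among 16668 genes. For the TMPRSS2 window, which is MX1 sequence in BT-549, they were the interferon-induced IFIT2 and IFIT5 (r = 0.988 and 0.984) and FAM20B (0.978). Here 255 genes were above 0.9. For FOXA1 they were ENSG00000260170, PCDHAC2 and PRKAB1 (0.999, 0.998 and 0.998), for STEAP1 KLHL25, LRRC71 and TRPM6 (0.998, 0.997 and 0.996) and for STEAP2 ARHGEF4, KLF13 and PGLYRP4 (0.998, 0.998 and 0.997). For these 3 members 3266, 3095 and 3264 genes were above 0.9. For KLK3 the most similar genes were LRRC27, EEFSEC and SUMO2 (0.947, 0.941 and 0.938), with 84 genes above 0.9. For every member the 12 points fall into 2 lines and share library and depth.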

How the data were processed

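ATAC-seq was performed on 12 libraries, and the samples were grouped by cell line and treatment from the labels, which call the vehicle cells both untreated and DMSO-treated. Reads had been mapped by the authors with bwa-mem (genome GRCh38), and duplicates were taken out with Picard. Peaks were called for each replicate alone with MACS2 (2.2.7.1 per the submitters' processing notes) at a q-value of 0.05, and regions present in 3 or more replicates of a line were kept. The deposited bin values are estimated counts, not normalized by the authors and mostly not whole, averaged over the bases of 100-bp bins. In the deposited peak lists the authors give each peak's fold enrichment, a ratio over background, and the -log10 of its q-value.

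Bins were summed over each accessible region, gene window or stretch present in both tables, and rounded to whole numbers, since the design assumed whole counts. Features with a total of at least 10 were tested with edgeR 4.0.16 (R 4.3.3, quasi-likelihood test, robust, library sums as scaling, Benjamini-Hochberg adjustment over all features). Standard errors are the log2 fold change over the square root of the F value. The members and gene lists were chosen with earlier results of these data known. Named in the text are the members, per member the region at the start, the most covered one and those with an adjusted p under 0.05, up to 4 genes per list by smallest adjusted p, and the 3 genes most like each member. Gene positions came from GENCODE v44 and bases from GRCh38, of which the 24 chromosome names and lengths hold all bins of both tables. RefSeq starts (GRCh38.p14) were matched for 5 of 7 members. The fits were tested on simulated data. Some items are not reported here. Alternatives were TMM and RLE factors, DESeq2 1.42.0, loess offsets (limma 3.58.1), no filter, other flanks and cutoffs, the highest bin, a replicate block and leaving out each library. The 3 replicates per group set the precision, and the DAR cutoffs follow the study's methods.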

Additional observations from a re-analysis of the deposited data

Results flagged for a closer look

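The effect of DOX on the summed TMPRSS2 window differed between the lines by a tested interaction, 2.88 on the log2 scale (DU-145 minus BT-549, edgeR, adjusted p = 8.31e-16). The BT-549 side of this window consists of MX1 bins. They entered the table only through the vehicle group, where they are high, so that this p-value is conditional on that choice. The effect on the FOXA1 window also differed, by 0.35 (adjusted p = 0.0375), with a decrease in both lines over different bins, and this call was lost in 6 of the 12 fits that left out 1 library. Groups of 3 libraries are too small for a test of single outlying libraries.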

How the results depend on the processing

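Of 786 values of single regions, stretches and windows under an alternative, 752 kept their side of the threshold, 25 lost and 8 gained a call, and 1 called value reversed, namely the DU-145 FOXA1 promoter with loess offsets (0.12). Among the 752, 44 changed sign with no call in either setting, and the others kept their direction. Among BT-549 regions the number higher was 0 with the highest bin and 0 with a replicate block, against 1, and 0 to 1 without single replicates. Window counts moved with the flank: in DU-145 the number higher was 1 with 5 kb on each side, where KLK2 has no bin, and 0 with 50 kb. In BT-549 it was 0 with 5 kb, where KLK3 has no bin, 0 with DESeq2 and 0 to 1 without single replicates. For the interaction, the number higher was 1 to 2 and the number lower 0 to 1 without single replicates. DU-145 opening DARs numbered 0 with DESeq2 and 26 at an adjusted p under 0.05, against 10. Closing DARs numbered 2 with TMM factors, 6 with loess offsets, 9 at an adjusted p under 0.05 and 0 to 2 without single replicates, against 0. BT-549 closing DARs numbered 21 with DESeq2, against 46. The cause of the other moves was not tested.

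The replicate numbers did not pair the samples: deviations of same-numbered libraries correlated at -0.031 to 0.034 in DU-145 and 0.0042 to 0.065 in BT-549. With the number as a replicate block, the KLK15 intron of BT-549 was at 0.80 (adjusted p = 0.0894), and no other member call changed. Depth limits the BT-549 DOX libraries, of which 8.84% to 16.9% of bins were under 1.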
